A study of Mus musculus with 6 samples.

Results

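Ribosome biogenesis factors and the subunits of RNA polymerase I were followed in morula-like aggregates, 3-dimensional cell clusters grown from mouse expanded pluripotent stem cells as a model of the compacting embryo. The set holds the 44 rows, of 18388 in the deposited expression table, whose symbol begins with UTP, NOP, NOL or RRP and a digit, or is POLR1A to POLR1H, BOP1 or RRS1. By role they are 5 subunits of RNA polymerase I, 21 factors of the small-subunit processome and 40S assembly, 3 proteins of the snoRNPs, 12 factors of large-subunit assembly, and 3 genes (Nol3, Nol4 and Nol4l) that share the letters of the name but have no ribosome assembly role assigned here. Of the 44 genes, 42 had a mean of at least 1 FPKM (fragments mapped to a gene, scaled to transcript length and library size) and were tested. Nol3 and Nol4 were below that level.

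The 6 libraries are 3 from aggregates treated with PFOA (perfluorooctanoic acid, a persistent fluorinated surfactant) and 3 from aggregates given the vehicle DMSO. All came from the same cell type, carried no labelled genetic change, and were grown in N2B27LCDM medium and then an induction medium. The labels give no dose, no length of exposure and no count of separate cultures. The p-values therefore rest on variation among libraries that could be technical replicates of 1 culture.

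Ribosomes are assembled in the nucleolus. RNA polymerase I transcribes the long precursor of the ribosomal RNAs, and the small-subunit processome folds and cleaves its 5′ part. The snoRNPs guide the modification of single nucleotides, and a further set of factors matures the large subunit. Many genes of this pathway are known targets of the transcription factor MYC, which binds the E-box CACGTG, and the title of the series names c-MYC in embryo compaction. Pluripotent stem cells and early embryos grow and divide fast and are known for prominent nucleoli.

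Libraries differed in ways that bear on these genes. FPKM summed to between 585739 and 630644 in PFOA libraries and between 641975 and 657239 in DMSO libraries, and the depth in reads is unknown. DMSO 3 stood apart from DMSO 1 and 2: on the first principal component of the tested genes, which carried 45.2% of the variance, the PFOA libraries lay at -13.0, -3.99 and -4.55 and the DMSO libraries at 12.5, 10.02 and -0.957. PFOA 1 lay farthest from DMSO. A fit with an added term shared by DMSO 1 and 2, in which PFOA is set against DMSO 3 alone, is given for the set's median and for the genes named in most detail whose estimate it moved by over 1.5 times. The cell type carried its defining markers: 10 of 10 pluripotency genes were tested, with Pou5f1 at 885 ± 34.4 FPKM in PFOA and 979 ± 33.9 FPKM in DMSO (SD, n = 3 each) and Nanog at 265 ± 2.63 FPKM in PFOA and 277 ± 4.98 FPKM in DMSO. Fibroblast markers were low and their 10 genes summed to 24.2 to 26.3 FPKM in PFOA libraries and 27.1 to 32.4 FPKM in DMSO libraries, with 7 of 8 tested genes lower in PFOA. Their part in the results was not tested, and in bulk RNA fewer cells of a type and less RNA per cell cannot be told apart.

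Levels in PFOA and DMSO aggregates lay close together, and none of the 42 tested genes was called different (0 genes at a limma adjusted p under 0.05, with Benjamini-Hochberg adjustment over all 11876 genes tested), against 0.00842% of all genes tested. The smallest adjusted p among them was 0.118, for Nop10. Before adjustment, 3 genes were higher in PFOA and 9 lower at a p under 0.05, where 8.56% and 12.5% of all genes tested were. The median log2 fold change of PFOA over DMSO was -0.020 over the 42 genes and -0.0065 over all genes tested. The median half-width of a gene's 95% confidence interval, which is not adjusted over genes, was 0.098. Shifts smaller than that were not detectable for a typical gene even before adjustment. Larger shifts also missed the adjusted threshold, up to -0.27 for Nop10. The largest estimates were -0.27 and 0.20 on the log2(FPKM + 1) scale.

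The direction of the set depended on the scaling, as did that of all genes tested. With FPKM as deposited 18 genes were higher and 24 lower, whereas quantile normalization gave 24 higher and 18 lower, with a median of 0.027. Over all genes tested, 5651 were higher and 6225 lower as deposited. Quantile normalization gave 6380 higher and 5496 lower there, with a median of 0.010. At an unadjusted p under 0.05 quantile normalization gave 7 higher and 4 lower, against 11.5% and 9.38% of all genes tested. With the term for DMSO 1 and 2 the median was -0.0047. The summed FPKM of the 44 genes was 2758, 2827 and 2806 in PFOA 1 to 3 and 2903, 2901 and 2863 in DMSO 1 to 3. As a share of all FPKM the same genes made up 0.471%, 0.448% and 0.450% in PFOA and 0.443%, 0.441% and 0.446% in DMSO. The sum was thus lower, and the share higher, in each PFOA library than in each DMSO library.

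Promoters give the sequence context of the MYC question. RefSeq windows from base -250 to base 50 relative to the annotated start (build GRCm38.p6) were found for 34 of the 44 genes, with no window for Bop1, Nol3, Nol4, Nol6, Nop53, Rrp12, Rrs1, Utp11, Utp23 and Utp6. The E-box CACGTG, which reads the same on both strands, lay in a window of 8 of the 34 genes (23.5%): Nol11, Nop2, Rrp7a, Utp14b, Utp18, Utp20, Utp25 and Utp4. It lay in 12.1% of the 9561 genes with a mean of at least 1 FPKM and a window, and in 8.09% of all 27025 genes with one. The ETS-type motif CCGGAAG, on either strand, lay in 11 of the 34 genes (32.4%), against 21.1% of the genes with at least 1 FPKM. Neither motif contains the other. The stretches that follow run 5′ to 3′, hold 120 bases each from before the start of transcription, and show the E-box in capitals. They were chosen because their E-box lies in sequence free of annotated exons, and Polr1a, which encodes the largest polymerase subunit and has no E-box in its window, is shown beside them.
Nop2: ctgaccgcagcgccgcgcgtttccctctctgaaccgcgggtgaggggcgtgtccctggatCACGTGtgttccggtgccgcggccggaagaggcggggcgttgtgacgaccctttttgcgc
Nol11: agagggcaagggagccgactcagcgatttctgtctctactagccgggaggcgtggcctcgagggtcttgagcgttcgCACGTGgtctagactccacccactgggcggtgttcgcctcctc
Utp14b: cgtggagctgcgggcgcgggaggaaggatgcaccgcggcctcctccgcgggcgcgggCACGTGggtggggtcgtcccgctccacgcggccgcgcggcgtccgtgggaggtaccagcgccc
Rrp7a: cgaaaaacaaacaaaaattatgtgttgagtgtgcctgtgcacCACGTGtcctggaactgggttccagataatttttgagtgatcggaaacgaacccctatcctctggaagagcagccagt
Polr1a: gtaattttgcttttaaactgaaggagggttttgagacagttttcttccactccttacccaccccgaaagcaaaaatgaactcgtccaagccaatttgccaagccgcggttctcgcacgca
These are chr6:125131763-125131882 on the plus strand (Nop2), chr11:107189382-107189501 on the minus strand (Nol11), chr1:78658320-78658439 on the plus strand (Utp14b), chr15:83122932-83123051 on the minus strand (Rrp7a) and chr6:71908933-71909052 on the plus strand (Polr1a), all in GRCm38.p6. The stretch of Rrp7a begins at base -250 from the start and the others at base -120. Utp14b shares 3.18% of its exon bases with Acsl3 on the same strand.

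Median fold changes with and without the E-box lay close together, in groups unlike in length. The 8 genes with CACGTG had a median log2 fold change of -0.013, ranging from -0.11 (Rrp7a) to 0.20 (Utp20), with 3 higher and 5 lower. The 26 genes without it had a median of -0.011, with 12 higher and 14 lower. Median coding length was 2236.5 nt with the E-box and 1546.5 nt without it. Of the 11 genes with CCGGAAG, 1 was higher and 10 lower, with a median of -0.032, and of the 23 without it 14 were higher and 9 lower, with a median of 0.026. The genes with CCGGAAG also had shorter coding sequences (median 1407 nt, against 2037 nt without it), and length moved with fold change, as described further on. These counts are a description with no test, and a match is not a binding site.

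RNA polymerase I subunits lay on both sides of 0. Polr1a, which encodes the largest catalytic subunit, was 57.5, 52.2 and 52.8 FPKM in PFOA 1 to 3 and 49.0, 49.1 and 50.9 FPKM in DMSO 1 to 3. Each PFOA value was above each DMSO value, but the difference missed the threshold (log2 fold change 0.12, SE 0.045, limma adjusted p = 0.19). Polr1b, the second catalytic subunit, was 41.5, 40.1 and 39.2 FPKM in PFOA and 37.8, 37.8 and 40.2 FPKM in DMSO, so the groups overlapped (log2 fold change 0.060, limma adjusted p = 0.439). The assembly subunits that polymerase I shares with polymerase III were lower in each PFOA library than in each DMSO library. Polr1c was 92.2, 88.6 and 89.8 FPKM in PFOA and 101.9, 100.6 and 92.4 FPKM in DMSO (log2 fold change -0.12, SE 0.045, limma adjusted p = 0.186). Polr1d was 105.0, 119.5 and 116.8 FPKM in PFOA and 134.3, 137.7 and 124.0 FPKM in DMSO (log2 fold change -0.21, SE 0.059, limma adjusted p = 0.136). In both genes DMSO 3 was the DMSO library nearest to PFOA, and with the term for DMSO 1 and 2 the log2 fold changes were -0.035 for Polr1c and -0.13 for Polr1d. The same term gave 0.0015 for Polr1b. Polr1e, an initiation subunit, was the scarcest, at 13.6, 13.6 and 14.7 FPKM in PFOA and 14.6, 14.4 and 13.8 FPKM in DMSO, with overlapping groups (log2 fold change -0.032, limma adjusted p = 0.74), and the term for DMSO 1 and 2 turned its estimate to 0.010. Polr1d shared 10.8% of its 50-nt words with transcripts of other genes, so its value is less certain where such reads were split.

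In order of mean FPKM, which is scaled by transcript length, the subunits ran Polr1d, Polr1c, Polr1a, Polr1b and Polr1e in both groups, with no overlap between neighbours in any library. Polr1d was 114 ± 7.71 FPKM in PFOA and 132 ± 7.12 FPKM in DMSO and Polr1e was 13.9 ± 0.618 FPKM in PFOA and 14.3 ± 0.407 FPKM in DMSO. The other three subunits stood in the table under older symbols, which the name rule does not match, and were looked up after the values had been seen. Znrd1, the subunit now called Polr1h, was 84.2, 93.4 and 97.6 FPKM in PFOA and 106.1, 104.9 and 102.6 FPKM in DMSO (log2 fold change -0.19, limma adjusted p = 0.137), and -0.021 with a trend on transcript length removed. Cd3eap, now Polr1g, was 26.2 ± 0.490 FPKM in PFOA and 25.4 ± 0.959 FPKM in DMSO, and Twistnb, now Polr1f, was 23.0 ± 0.545 FPKM in PFOA and 23.9 ± 1.20 FPKM in DMSO, both with overlapping groups. With FPKM as deposited, Polr1d and Znrd1 had the most negative estimates among all 8 subunits, and the catalytic subunits Polr1a and Polr1b the most positive. Their coding lengths also differ, at 5151 nt for Polr1a and 3405 nt for Polr1b but 399 nt for Polr1d. With a trend on transcript length removed, Polr1a was at 0.0070, Polr1b at 0.043, Polr1c at -0.015, Polr1d at -0.096 and Polr1e at -0.017.

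**Figure D1:**
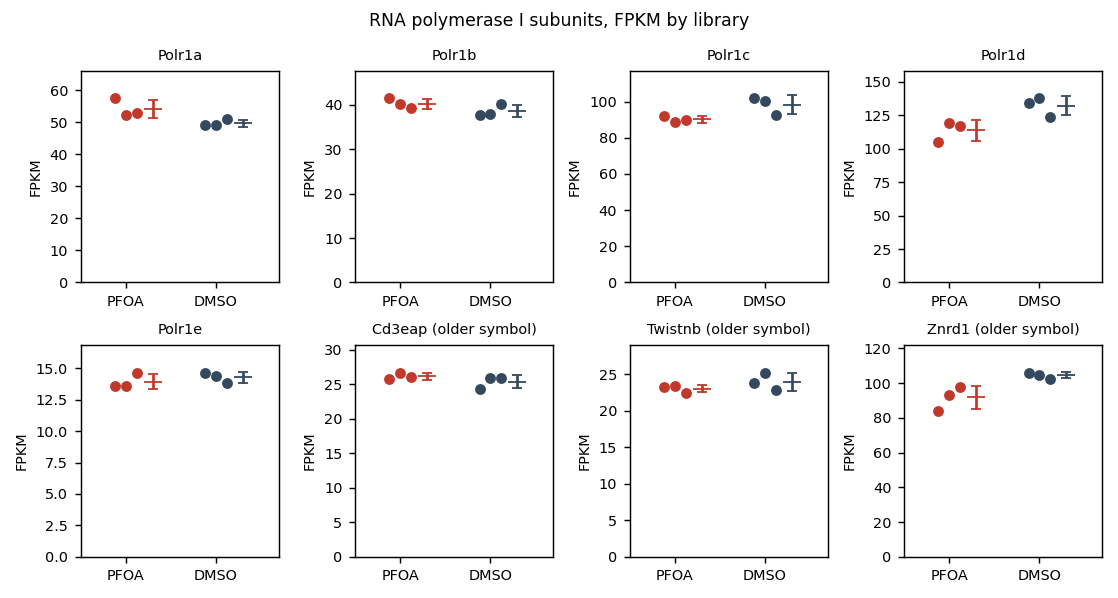
FPKM (y axis, from 0) of the 8 RNA polymerase I subunits in the 3 PFOA and 3 DMSO libraries (points), with the mean and SD beside them. Polr1a is higher in each PFOA library than in each DMSO library, and Polr1c, Polr1d and Znrd1 are lower, while none passes the adjusted threshold.

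The small-subunit processome is the large particle that forms on the 5′ end of the precursor RNA. Of its 21 genes 10 were higher and 11 lower in PFOA, with a median log2 fold change of -0.00048, and 0 passed the adjusted threshold. An unadjusted p under 0.05 was found for 2 higher and 3 lower, against 8.56% and 12.5% of all genes tested. Utp20, a very large scaffold protein of this particle, was 37.1, 33.0 and 33.2 FPKM in PFOA 1 to 3 and 29.5, 28.8 and 31.2 FPKM in DMSO 1 to 3. The PFOA values were all above the DMSO values, PFOA 1 most of all (log2 fold change 0.20, SE 0.055, limma adjusted p = 0.134). Utp14b, an X-to-autosome retrocopy of Utp14a known for its role in the male germ line of mice, was 9.33, 8.33 and 8.44 FPKM in PFOA and 7.21, 7.33 and 7.8 FPKM in DMSO. The groups did not overlap here either (log2 fold change 0.20, SE 0.060, limma adjusted p = 0.144). Its parent Utp14a, whose product is needed to release the U3 snoRNA in yeast, was 40.4 ± 0.748 FPKM in PFOA and 39.5 ± 1.48 FPKM in DMSO, so the copy was the lower of these genes in every library.

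Rrp36 and Rrp7a, both needed for early cleavages of the precursor in yeast, were lower in each PFOA library. Rrp36 was 18.6, 18.5 and 18.9 FPKM in PFOA and 20.7, 20.8 and 21.2 FPKM in DMSO (log2 fold change -0.16, SE 0.038, limma adjusted p = 0.128). Rrp7a was 67.4, 72.4 and 68.8 FPKM in PFOA and 76.8, 76.2 and 72.7 FPKM in DMSO (log2 fold change -0.11, SE 0.041, limma adjusted p = 0.186), and 12.5% of its exon bases overlap the opposite-strand gene Serhl. With the term for DMSO 1 and 2 Rrp7a was at -0.064. Utp4, which belongs to the complex that binds the precursor first, was the most abundant factor of the group, at 119.4, 120.4 and 116.9 FPKM in PFOA and 122.1, 123.7 and 118.3 FPKM in DMSO, with overlapping groups (log2 fold change -0.029, limma adjusted p = 0.66), and at 0.0070 with the term for DMSO 1 and 2.

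The remaining factors of the particle had smaller differences or a wider spread. Rrp9, the U3 snoRNP protein, was 101 ± 11.2 FPKM in PFOA and 113 ± 5.35 FPKM in DMSO (SD, n = 3 each), with PFOA 1 at 88.0 FPKM the lowest of the 6 libraries. Its log2 fold change of -0.16 was -0.092 with the term for DMSO 1 and 2, while that of Nol7, -0.15, was -0.23. Utp3 was 77.8 ± 1.51 FPKM in PFOA and 77.9 ± 3.08 FPKM in DMSO, Utp11 73.1 ± 3.02 FPKM in PFOA and 77.1 ± 1.56 FPKM in DMSO, and Nol6, a core processome protein, 74.3 ± 3.01 FPKM in PFOA and 71.0 ± 0.503 FPKM in DMSO. Nop14 was 65.2 ± 1.47 FPKM in PFOA and 63.8 ± 0.835 FPKM in DMSO. Nol7 was 43.8 ± 2.72 FPKM in PFOA and 48.6 ± 2.95 FPKM in DMSO, Nol11 46.7 ± 0.801 FPKM in PFOA and 47.0 ± 0.475 FPKM in DMSO, and Utp6 47.2 ± 0.160 FPKM in PFOA and 46.5 ± 0.900 FPKM in DMSO. Of these, Nop14 was higher in each PFOA library than in each DMSO library, and the groups of the others overlapped. Utp18 was 39.1 ± 2.2 FPKM in PFOA and 39.96 ± 0.675 FPKM in DMSO, Nol10 37.5 ± 1.52 FPKM in PFOA and 35.3 ± 0.890 FPKM in DMSO, and Rrp12, an export factor of the pre-40S particle, 36.5 ± 0.759 FPKM in PFOA and 35.4 ± 1.54 FPKM in DMSO. Nop9 was 26.5 ± 1.40 FPKM in PFOA and 28.6 ± 0.857 FPKM in DMSO without overlap, Utp15 25.0 ± 0.563 FPKM in PFOA and 24.7 ± 0.693 FPKM in DMSO, Utp25 15.5 ± 0.710 FPKM in PFOA and 14.6 ± 0.733 FPKM in DMSO, and Utp23 9.45 ± 0.390 FPKM in PFOA and 9.77 ± 0.580 FPKM in DMSO. Nop9 has 29.9% of its exon bases under genes of the other strand, mainly Cideb, and Nol7 16.5%, mainly Ranbp9, so reads from those partners cannot be told apart unless strand was used in counting.

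The snoRNP proteins also lay on both sides of 0. Nop10, the smallest core protein of the H/ACA snoRNPs that guide pseudouridylation, was 142.5, 167.9 and 152.9 FPKM in PFOA 1 to 3 and 181.8, 189.1 and 185.6 FPKM in DMSO 1 to 3. Each PFOA value was below each DMSO value, with the PFOA libraries more widely spread, and the log2 fold change was -0.27 (SE 0.058, 95% confidence interval -0.40 to -0.13), which missed the adjusted threshold (limma adjusted p = 0.118). Without PFOA 2, the PFOA library nearest to DMSO, Nop10 passed (log2 fold change -0.33, limma adjusted p = 0.0449). That fit also called more of all genes tested than the fit with every library, as given in the closing section. Set against DMSO 3 alone, the log2 fold change of Nop10 was also -0.27. Nop56 and Nop58 form the core of the box C/D snoRNPs that guide ribose methylation. Nop56, the most abundant gene of the whole set, was 301.1, 313.1 and 298.4 FPKM in PFOA and 293.4, 300.9 and 290.9 FPKM in DMSO, with overlapping groups (log2 fold change 0.044, limma adjusted p = 0.529). Nop58 was 194.6, 186.8 and 186.5 FPKM in PFOA and 188.3, 192.1 and 202.6 FPKM in DMSO (log2 fold change -0.037, limma adjusted p = 0.632), and quantile normalization turned it to 0.045. The estimates of both depended on the setting. Nop56 was at 0.12 with quantile normalization and 0.11 with a trend on transcript length removed, without overlap in either. Nop58 was at -0.098 with the term for DMSO 1 and 2, and at -0.15 without overlap once the transcript length trend was removed. Nop56 shared 18.6% of its 50-nt words with other annotated transcripts.

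Of 12 factors of large-subunit assembly, 4 had positive and 8 negative estimates, with a median log2 fold change of -0.025. Of these, 0 passed the adjusted threshold. At an unadjusted p under 0.05, 0 were higher and 3 lower, against 8.56% and 12.5% of all genes tested. Nol12, related to a yeast exonuclease of ribosomal RNA processing, was 31.2, 30.8 and 33.2 FPKM in PFOA and 37.9, 38.5 and 34.0 FPKM in DMSO (log2 fold change -0.21, SE 0.055, limma adjusted p = 0.133). DMSO 3 lay just above the highest PFOA library, and with the term for DMSO 1 and 2 the log2 fold change was -0.098. Nop53, which recruits the RNA exosome to the maturing large subunit, was 182.5, 188.7 and 199.5 FPKM in PFOA and 208.2, 207.2 and 201.7 FPKM in DMSO (log2 fold change -0.11, limma adjusted p = 0.188). It was the most abundant of the group, and under quantile normalization its log2 fold change was -0.0099. Nop16 was 50.7, 52.9 and 53.0 FPKM in PFOA and 58.4, 58.2 and 53.5 FPKM in DMSO (log2 fold change -0.12, limma adjusted p = 0.196), and at -0.036 with the term for DMSO 1 and 2, since DMSO 3 lay beside the PFOA libraries. Rrp1b, a nucleolar protein, lay the other way, at 41.6, 40.5 and 39.0 FPKM in PFOA and 37.7, 38.8 and 38.8 FPKM in DMSO (log2 fold change 0.068, limma adjusted p = 0.348).

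The other large-subunit factors differed by under 0.07 on the log2 scale. Nop2, the methyltransferase of the large ribosomal RNA whose promoter stretch is shown above, was 113 ± 4.45 FPKM in PFOA and 115 ± 1.79 FPKM in DMSO (SD, n = 3 each). Bop1, which acts with Pes1 and Wdr12 in large-subunit maturation, was 74.4 ± 1.97 FPKM in PFOA and 77 ± 3.64 FPKM in DMSO. Rrs1, which helps to bring in the 5S particle, was 60.5 ± 2.64 FPKM in PFOA and 63.4 ± 1.77 FPKM in DMSO. Their groups overlapped, and the term for DMSO 1 and 2 turned Bop1 from -0.048 to 0.027. Rrp1 was 92.0 ± 0.965 FPKM in PFOA and 90.4 ± 1.98 FPKM in DMSO, and Nol9, a polynucleotide kinase of precursor cleavage, 71.4 ± 0.329 FPKM in PFOA and 69.1 ± 1.19 FPKM in DMSO. Rrp15 was 56.8 ± 3.46 FPKM in PFOA and 57.8 ± 0.729 FPKM in DMSO, Nol8 22.1 ± 0.340 FPKM in PFOA and 21.1 ± 0.276 FPKM in DMSO, and Rrp8, a base methyltransferase of the large ribosomal RNA, 19.6 ± 0.506 FPKM in PFOA and 19.9 ± 1.00 FPKM in DMSO. Of these, Nol8 and Nol9 were higher in each PFOA library than in each DMSO library, by 0.065 and 0.047 on the log2 scale (limma adjusted p = 0.355 and 0.444).

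The 3 genes matched by name alone were scarce. Nol3, an inhibitor of apoptosis, was 0.800, 0.740 and 0.670 FPKM in PFOA and 0.700, 0.990 and 0.870 FPKM in DMSO, and 48.2% of its exon bases overlap a gene of the other strand. Nol4, known from neural tissue, was 0.140, 0.110 and 0.210 FPKM in PFOA and 0.1, 0.15 and 0.110 FPKM in DMSO. Nol4l was 2.43, 2.2 and 2.72 FPKM in PFOA and 2.40, 2.57 and 2.25 FPKM in DMSO (log2 fold change 0.017, limma adjusted p = 0.925), and its estimate was 0.083 with the term for DMSO 1 and 2. Their levels were below those of every other gene of the set, of which the lowest, Utp14b, averaged 8.70 FPKM in PFOA and 7.45 FPKM in DMSO.

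**Figure D2:**
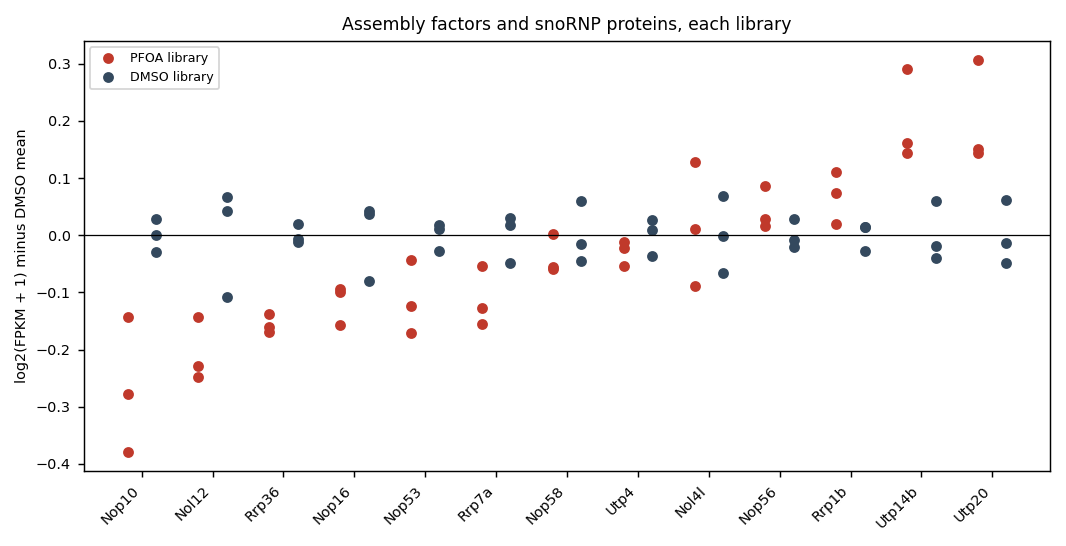
Assembly factors and snoRNP proteins named by rule, in order of fold change. Each point is 1 library, PFOA at the left and DMSO at the right of a gene, as log2(FPKM + 1) minus the mean of the 3 DMSO libraries. Nop10 is lowest and Utp20 and Utp14b are highest in PFOA, and genes in the middle, such as Utp4 and Nop56, overlap.

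**Figure D3:**
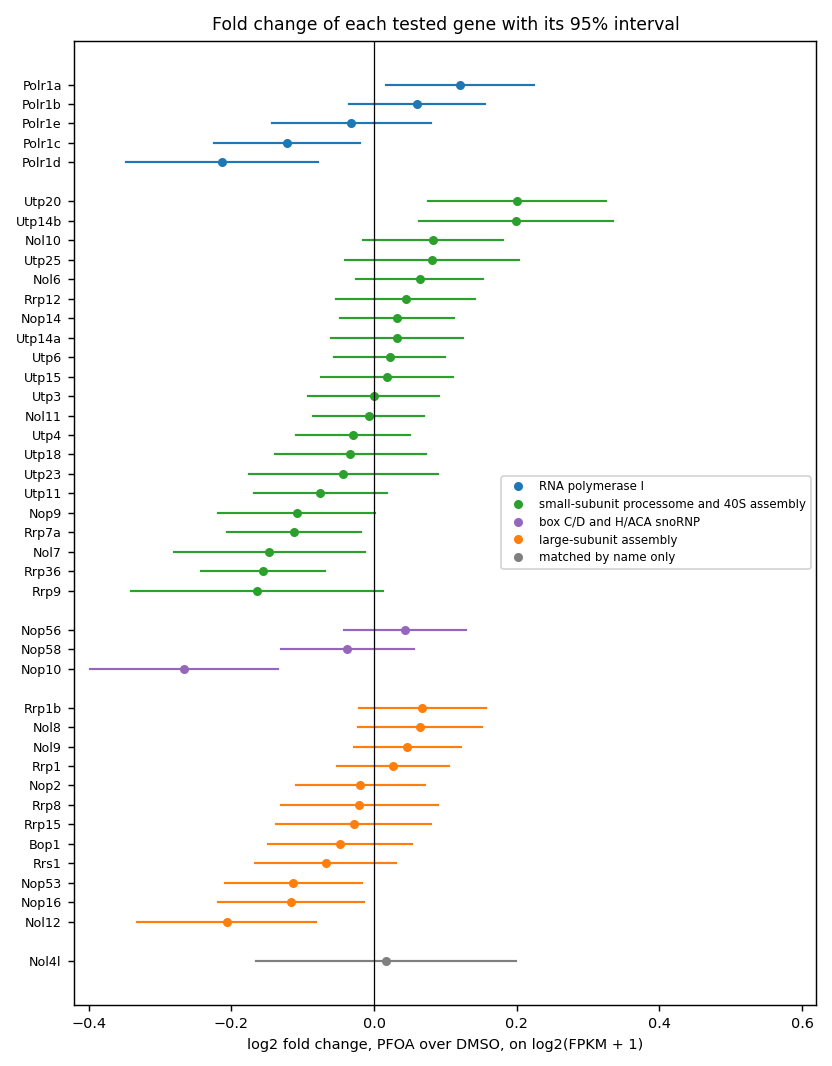
Log2 fold change of PFOA over DMSO for each of the 42 tested genes (points) with its 95% confidence interval (lines), coloured by role. Within each role of 3 or more genes, estimates lie on both sides of 0, from -0.27 for Nop10 to 0.20 for Utp20.

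Groups that did not overlap were found for 16 of the 42 genes, 7 higher and 9 lower in PFOA, where 27.2% of all genes tested did not overlap (13.5% higher and 13.7% lower). Under quantile normalization the split was 9 higher and 5 lower, against 16.6% and 10.3% of all genes tested. Without DMSO 3, 25 genes did not overlap, 12 higher and 13 lower, against 19.6% and 23.0% of all genes tested in that fit (42.6% in either direction).

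Within the set, fold changes followed the length of the coding sequence. The 10 shortest, from 192 nt (Nop10) to 843 nt (Rrp15), were all lower in PFOA. Their median log2 fold change was -0.13, with a range from -0.27 to -0.028. Of these 10, 6 were lower without overlap, against 29.2% of the 2879 tested genes that were as short. Of the 10 longest, from 2304 nt (Utp25) to 8367 nt (Utp20), 9 were higher, with a median of 0.064, and Nop2 was the exception at -0.019. Of the 10 longest, 5 were higher without overlap, against 36.5% of the 2637 tested genes that were as long. Across the 42 genes Spearman's rho between coding length and log2 fold change was 0.839, and across 11591 tested genes with a coding length it was 0.572. These are descriptions across genes that share the same 6 libraries, with no test. With the length of the longest transcript, UTRs included, in place of the coding sequence, the values were 0.645 and 0.595.

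Other genes of the same length lay in the same direction. Between 0 and 750 nt of coding sequence 6 of 6 genes of the set were lower, with a median of -0.18, and the 2387 other tested genes of that length had a median of -0.10, with 81.8% lower. From there to 1500 nt, 10 of 11 were lower, with a median of -0.075, against a median of -0.035 and 64.7% lower among 4012 other genes. From there to 3000 nt, 11 were higher and 8 lower, with a median of 0.019, against 0.026 and 37.0% lower among 3596 other genes. Above 3000 nt 6 of 6 were higher, with a median of 0.064, against 0.099 and 10.4% lower among 1554 other genes.

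**Figure D4:**
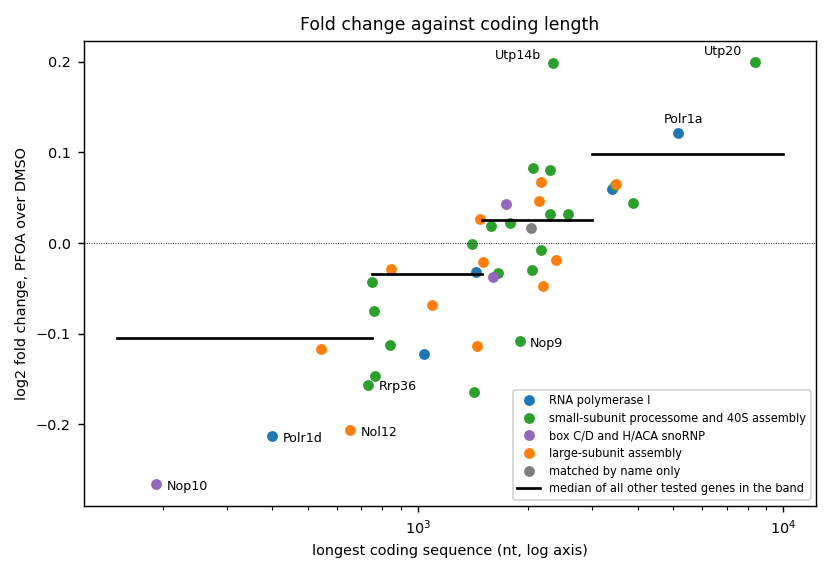
Log2 fold change of PFOA over DMSO (y axis) against the longest coding sequence in nt (x axis, log scale) for the 42 tested genes, coloured by role. Horizontal lines give the median of all other tested genes in 4 bands of coding length, from -0.10 under 750 nt to 0.099 above 3000 nt, and short genes of the set such as Nop10, Polr1d and Nol12 lie lowest.

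The length pattern was present in each PFOA library and was largest in PFOA 1. The 21 genes up to the median coding length of the set had medians, relative to the DMSO mean, of -0.10, -0.063 and -0.058 in PFOA 1 to 3 and 0.021, 0.0023 and -0.019 in DMSO 1 to 3. The 21 longer genes had medians of 0.054, 0.041 and 0.022 in PFOA and -0.0018, -0.0070 and -0.014 in DMSO. All 7256 tested genes up to that length had medians of -0.073, -0.037 and -0.035 in PFOA and 0.011, 0.0046 and -0.014 in DMSO. The 4335 tested genes above it had medians of 0.090, 0.040 and 0.041 in PFOA and -0.0013, -0.0051 and 0.0087 in DMSO.

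A trend on coding length was then removed from each library, a step chosen after the data were seen. Spearman's rho between coding length and log2 fold change over the 42 genes was 0.378 afterwards. Groups that did not overlap then numbered 5 of 42, 1 higher and 4 lower, where 19.6% of all genes tested did not overlap (10.6% higher and 8.94% lower). With a trend on transcript length removed instead, 13 did not overlap, 6 higher and 7 lower, against 11.1% and 9.16% of all genes tested (20.3% in either direction). After the coding length trend was removed, Utp14b stayed higher (log2 fold change 0.16), and Nop10 (-0.083), Rrp36 (-0.082), Nop53 (-0.10) and Nop9 (-0.12) stayed lower in each PFOA library. At an unadjusted p under 0.05, 1 gene was higher and 4 lower, against 6.82% and 7.19% of all genes tested, and 0 passed the adjusted threshold. The polymerase subunits then had smaller log2 fold changes, with Polr1a at 0.012, Polr1b at -0.012, Polr1c at -0.079 and Polr1d at -0.085. Utp20 was at 0.048, Nol12 at -0.12, Rrp7a at -0.050 and Nop16 at -0.013, and their groups then overlapped. The shorter 21 genes had medians of -0.034, -0.053 and -0.036 in PFOA and 0.0094, 0.0016 and -0.0020 in DMSO, so each PFOA library remained below each DMSO library. All 7256 tested genes as short then had medians of 0.0017, -0.0014 and 0.0058 in PFOA and -0.00065, 0.00073 and 0.00075 in DMSO. The longer 21 genes had medians of -0.014, -0.0049 and 0.012 in PFOA and 0.0043, -0.0044 and -0.013 in DMSO, which overlapped.

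**Figure D5:**
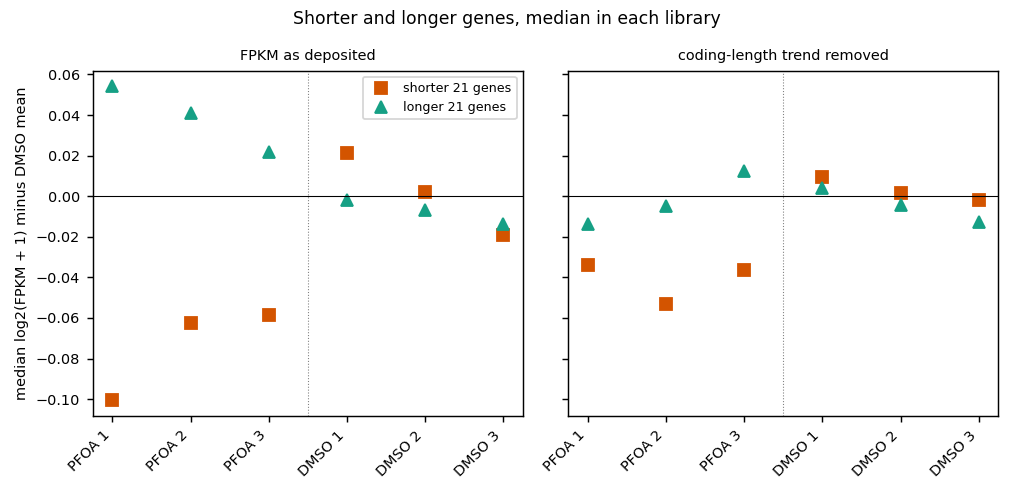
Median log2(FPKM + 1) minus the DMSO mean (y axis) of the shorter 21 and the longer 21 genes in each library, PFOA at the left. With FPKM as deposited the 2 classes part in PFOA, to -0.10 and 0.054 in PFOA 1, and with the trend on coding length removed the longer genes overlap between groups while the shorter ones stay lower in PFOA.

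In the other parts of the pathway 0 genes passed the adjusted threshold in each list. Among 9 tested initiation and termination factors of polymerase I, 3 were higher and 6 lower (median -0.0061). With a trend on transcript length removed their median turned to 0.088. Rrn3, which recruits the polymerase to the promoter, was 102.6 ± 1.14 FPKM in PFOA and 95.1 ± 3.05 FPKM in DMSO (log2 fold change 0.11, limma adjusted p = 0.166), and Ttf1, the terminator protein, was 10.1 ± 0.263 FPKM in PFOA and 9.31 ± 0.448 FPKM in DMSO (log2 fold change 0.11, limma adjusted p = 0.273). The architectural factor Ubtf was 101 ± 1.00 FPKM in PFOA and 101 ± 2.71 FPKM in DMSO. All 5 small subunits shared by polymerases I, II and III were lower in PFOA, with a median of -0.16. Polr2e was 225 ± 4.99 FPKM in PFOA and 247 ± 3.85 FPKM in DMSO (log2 fold change -0.14, limma adjusted p = 0.13), and Polr2h was 78.6 ± 1.71 FPKM in PFOA and 87.8 ± 5.47 FPKM in DMSO (log2 fold change -0.16, limma adjusted p = 0.154). Without the length trend these were -0.017 and -0.015. The median transcript of the 5 is 950 nt long, and with a trend on transcript length removed their median was -0.040. Polr2k had the most negative estimate of the 5, at 18.4, 32.6 and 31.1 FPKM in PFOA and 38.1, 38.25 and 40.6 FPKM in DMSO. Its log2 fold change was -0.54 (limma adjusted p = 0.163), and -0.35 with that trend removed. Of the 5, Polr2k and Polr2l share 21.6% and 20.9% of their 50-nt words with other transcripts.

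Of 36 other small-subunit factors 16 were higher and 20 lower (median -0.0019). An unadjusted p under 0.05 was found for 3 higher and 4 lower, against 8.56% and 12.5% of all genes tested. Imp3, a small U3 snoRNP protein, was 58.7 ± 2.45 FPKM in PFOA and 70.2 ± 5.11 FPKM in DMSO (log2 fold change -0.25, limma adjusted p = 0.118), and Ngdn was 61.5 ± 2.55 FPKM in PFOA and 68.9 ± 2.47 FPKM in DMSO (log2 fold change -0.16, limma adjusted p = 0.135). With the transcript length trend removed Imp3 was at -0.11, Ngdn at -0.045 and the list's median at 0.015. Of 60 other large-subunit factors 35 were higher and 25 lower (median 0.014). At an unadjusted p under 0.05, 6 were higher and 7 lower, against the same 8.56% and 12.5% of all genes tested. The giant ATPase Mdn1, which strips factors from the pre-60S particle, was 27.2 ± 3.17 FPKM in PFOA and 21.6 ± 1.36 FPKM in DMSO (log2 fold change 0.32, limma adjusted p = 0.128), and Urb2 was 29.3 ± 0.856 FPKM in PFOA and 25.4 ± 0.566 FPKM in DMSO (log2 fold change 0.20, limma adjusted p = 0.11). With that trend removed Mdn1 was at 0.15, Urb2 at 0.13 and the list's median at 0.031.

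A further list held 17 genes of other snoRNP core proteins, snoRNP assembly factors and nucleolar proteins such as nucleolin and nucleophosmin. Of these 17 genes, 4 were higher and 13 lower (median -0.066). An unadjusted p under 0.05 was found for 0 higher and 4 lower, against 8.56% and 12.5% of all genes tested. Npm3 was 132 ± 4.94 FPKM in PFOA and 158 ± 8.01 FPKM in DMSO (log2 fold change -0.25, limma adjusted p = 0.11), with 22.6% of its 50-nt words shared with other transcripts. Nhp2, the H/ACA partner of Nop10, was 230 ± 12.8 FPKM in PFOA and 261 ± 1.29 FPKM in DMSO (log2 fold change -0.18, limma adjusted p = 0.128). With the transcript length trend removed Npm3 was at -0.10, Nhp2 at -0.051 and the list's median at -0.027. Of 18 genes of the RNA exosome and its cofactors 8 were higher and 10 lower (median -0.034), with Exosc5 at 93.9 ± 5.00 FPKM in PFOA and 104 ± 2.82 FPKM in DMSO (log2 fold change -0.15, limma adjusted p = 0.151). Exosc6 was 27.2 ± 2.64 FPKM in PFOA and 31.4 ± 1.81 FPKM in DMSO (log2 fold change -0.21, limma adjusted p = 0.173), but all of its exon bases overlap Aars on the same strand, so its reads are uncertain. With that trend removed the exosome median turned to 0.030, with Exosc5 at -0.070 and Exosc6 at -0.10. In the MYC family, 2 of 4 genes were higher. Myc was 26.1, 25.4 and 26.8 FPKM in PFOA and 26.1, 24.0 and 24.0 FPKM in DMSO (log2 fold change 0.077, limma adjusted p = 0.375), and its partner Max was 65.0 ± 1.96 FPKM in PFOA and 68.7 ± 1.91 FPKM in DMSO (log2 fold change -0.078, limma adjusted p = 0.291). With that trend removed Myc was at 0.12, Max at -0.016 and the median of the 4 genes at -0.0029, against -0.018 with FPKM as deposited.

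Marker lists were described in the same way. Among 10 pluripotency markers 5 were higher and 5 lower (median 0.019), with the transcription factor Sall4 at 87.7 ± 2.96 FPKM in PFOA and 78.4 ± 1.62 FPKM in DMSO (limma adjusted p = 0.127) and Tfcp2l1 at 26.9 ± 2.05 FPKM in PFOA and 23.0 ± 0.956 FPKM in DMSO (limma adjusted p = 0.134). Estimates of the 10 ran from -0.21 to 0.22. At an unadjusted p under 0.05, 2 were higher and 2 lower, against 8.56% and 12.5% of all genes tested. Their summed FPKM was lower in PFOA libraries (3757 to 4212) than in DMSO libraries (4349 to 4542), as was the sum of all FPKM. Among 8 tested fibroblast markers 1 was higher and 7 lower (median -0.15), with Twist2 at 1.11 ± 0.0723 FPKM in PFOA and 1.95 ± 0.271 FPKM in DMSO (limma adjusted p = 0.11) and Dcn at 6.24 ± 0.420 FPKM in PFOA and 7.59 ± 0.868 FPKM in DMSO (limma adjusted p = 0.166). Of the exon bases of Twist2, 46.5% overlap a gene of the other strand. Among 7 tested trophectoderm markers 4 were higher and 3 lower (median 0.0015), with Krt8 at 207 ± 17.8 FPKM in PFOA and 223 ± 19.2 FPKM in DMSO and Tfap2c at 27.7 ± 0.924 FPKM in PFOA and 26.8 ± 1.18 FPKM in DMSO. Among 4 tested primitive endoderm markers 3 were higher and 1 lower (median 0.025), with Lama1 at 7.66 ± 0.278 FPKM in PFOA and 6.28 ± 0.257 FPKM in DMSO (limma adjusted p = 0.118) and Gata4 at 1.64 ± 0.0346 FPKM in PFOA and 1.77 ± 0.0833 FPKM in DMSO (limma adjusted p = 0.603). With the transcript length trend removed, the medians of the 4 marker lists were 0.048, -0.15, -0.0047 and 0.029 in the same order.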

How the data were processed

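Gene expression was measured by RNA-seq of polyadenylated RNA in 3 PFOA and 3 DMSO libraries, grouped and numbered by their titles. The authors deposited 1 table of FPKM, given to 2 decimals for 18388 symbols. HISAT2 2.0.4, Bowtie2 2.2.5 and GRCm39 are named in the submitters' processing notes. Their roles, the counting tool, its annotation and any use of strand are not stated in the labels. Depth is unknown: only 28.0% of 8292 low values lay within 0.15 of a whole multiple of their gene's smallest value, too few to recover read numbers for a count test. The number of libraries limits the precision.

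A filter on the mean over all libraries (1 FPKM or more) kept 11876 genes and left out 6512. Differences are on the log2(FPKM + 1) scale, where those of scarce genes come out too small. The PFOA minus DMSO contrast was fitted with limma 3.58.1 under R 4.3.3, using its intensity trend. Tests were two-sided, and a gene was called at a Benjamini-Hochberg adjusted p under 0.05. The fit was tested on simulated data. Members, lists and tests were chosen with earlier results of these data known. Named are all polymerase I subunits, the 4 smallest p and the highest mean in each role, the longest and shortest coding sequence, and 2 genes per further list with Myc. Ubtf, Polr2k, Pou5f1, Nanog, the remaining members and the subunits under older symbols were added after their values were seen. Same-numbered libraries did not deviate together (correlations -0.11, -0.0095 and -0.14), and the main fit did not pair them. Whether they shared a culture or batch is not in the labels, and these correlations cannot settle it.

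Coding and transcript lengths, shared 50-nt words and exon overlaps came from GENCODE M21, another build, so no coordinates are given from it. A coding length was found for 42 of 42 tested members. Length trends were removed per library by loess (span 0.5).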

Additional observations from a re-analysis of the deposited data

How the results depend on the processing

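Within the 42 tested genes, 0 were called under each alternative run that kept all 6 libraries, and leaving out 1 library gave 0 to 1, the 1 being Nop10 without PFOA 2. Over all genes tested, 1 was called, and 0 were when scarce genes were kept, when the variance trend was dropped, with the replicate block, with the term for DMSO 1 and 2, and with a trend on longest transcript or coding length removed. Leaving out 1 library gave 0 to 70 (70 without PFOA 2, 55 without DMSO 3). The set's median of -0.020 became 0.027 with quantile normalization, -0.0047 with the term for DMSO 1 and 2 and 0.0043 with the transcript length trend removed. It ran from -0.024 to 0.0023 when 1 library was left out, above 0 only without PFOA 1. Groups did not overlap for 16 genes, where 27.2% of all genes tested did not overlap. The count stayed at 16 with median centring (3236 of all 11876 genes tested) and was 14 with quantile normalization (26.8%). It was 13 with the transcript length trend removed (20.3% of all genes tested) and 5 with the coding length trend removed (19.6%). When 1 library was left out it was 18 to 25 (25 without DMSO 3), where 33.2% to 42.6% of all genes tested did not overlap. Fewer libraries overlap less by construction. Otherwise the cause was not tested. Of the 42 signs, 6 turned with quantile normalization, 1 with median centring, 8 with the term for DMSO 1 and 2, 8 with the transcript length trend removed and 10 with the coding length trend removed, all of estimates under 0.08 in size, and 0 to 3 when 1 library was left out. Among the genes named by rule, with the coding length trend removed the log2 fold changes were -0.012 for Polr1b, -0.0059 for Nol4l and 0.035 for Max. With the transcript length trend removed they were -0.058 for Nol4l and 0.017 for Utp4. With quantile normalization they were 0.045 for Nop58 and 0.025 for Utp4, and with the term for DMSO 1 and 2 they were 0.010 for Polr1e and 0.0070 for Utp4. Nol4l ran from -0.039 (without PFOA 3) to 0.069 (without PFOA 2) when 1 library was left out, and was -0.017 without DMSO 3. With the replicate block, a term for the library number, the set's median was -0.020. Each number holds 1 PFOA and 1 DMSO library, so this term leaves every estimate unchanged by construction. The planned trend on RefSeq protein length was not run, since protein lengths were not used here, and GENCODE lengths, chosen after seeing the data, took its place.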
